A study of Mus musculus with 16 samples.

Results

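The genes of glycolysis, glycogen use and the pentose phosphate pathway were followed here through the 4 groups of neutrophils that the series sequenced. A list of 39 symbols, made of glucose and glycogen enzymes, their regulators and the transcription factor gene Hif1a, without glucose transporters, was looked up in the deposited table of 23337 gene symbols. Of these, 38 were found under their own symbol, and 36 of the 38 had enough counts to be tested. Pkm, the gene of pyruvate kinase, was listed under its older symbol Pkm2, and its values stand beside the others without being counted among them.

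Blood neutrophils were isolated by magnetic negative selection from C57/Bl6 mice of 8 weeks, and each library was read by bulk RNA-Seq. Control mice carried the floxed Ltbr gene (Ltbrfl/fl) without Cre, and LTβRΔN mice carried the same floxed gene with Mrp8-Cre. The authors report the deletion by Mrp8-Cre as specific to neutrophils. Lymphotoxin beta receptor (LTβR), the product of Ltbr, is bound by the cytokine LIGHT. There were 3 unstimulated (libraries 71 to 73) and 4 stimulated (80 to 83) control libraries, and 4 unstimulated (67 to 70) and 5 stimulated (75 to 79) LTβRΔN libraries. Cells were kept for 2 h in TNF (100 ng/ml), IL-6 (50 ng/ml) and GM-CSF (100 ng/ml), and LIGHT (500 ng/ml) was added to some cultures, according to the protocol, whereas the text of the series design names the cytokines themselves as what was present or absent. Which libraries received LIGHT is not labelled, and the groups keep the names stimulated and unstimulated. Nor do the labels tie a library to 1 animal, so every p-value measures the spread between these libraries.

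Library totals lay between 1094335 and 11932653 counts, and 3 libraries held under 2000000 (68 among unstimulated, 75 and 77 among stimulated LTβRΔN libraries). Ltbr was at 84.6 to 154 CPM (read counts per gene relative to the depth of the library, as scaled by edgeR's TMM factors) in control and at 0.705 to 18.1 CPM in LTβRΔN libraries. The cytokine response genes Cish, Socs3 and Nfkbia were higher in every stimulated than in every unstimulated library, with Nfkbia at 369 to 768 CPM in unstimulated and at 15756 to 18682 CPM in stimulated libraries. Summed over 9 neutrophil markers found in the table, libraries held 47173 to 77388 CPM. Sums were 224 to 440 CPM for 6 monocyte and 0.775 to 11.3 CPM for 5 eosinophil markers. Csf1r alone was at 224 to 439 CPM, nearly all of the monocyte sum. No other monocyte marker was above 2.83 CPM in any library. Library 82 stood apart with 206 CPM of platelet and 811 CPM of immature neutrophil markers. Of the latter, Elane, Mpo and Ctsg were at 0 in all 16 libraries. All unstimulated libraries but library 73 carried index S520, and all stimulated ones S521, so the index nearly coincides with the treatment label.

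Glycolysis turns glucose into pyruvate in the cytosol and yields ATP without oxygen. The pentose phosphate pathway branches off after the first step and supplies NADPH, which feeds the oxidase that makes superoxide, as well as ribose for nucleotides. Mature neutrophils hold few mitochondria and are known to draw most of their ATP from glycolysis, with glycogen as a store, and HIF-1α, the protein of Hif1a, turns on many glycolytic genes when oxygen is low or cells are inflamed.

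Together the 38 genes made up 1.02 ± 0.0658% (SD, n = 3) of the scaled counts in unstimulated and 0.981 ± 0.0292% (n = 4) in stimulated control neutrophils. In LTβRΔN neutrophils they made up 1.02 ± 0.0338% (n = 4) without and 0.936 ± 0.0296% (n = 5) with stimulation, and the ranges of both genotypes overlapped under each label. Of the 36 genes tested, 1 passed edgeR's quasi-likelihood test at an adjusted p under 0.05 in any comparison. It was Hif1a, higher in stimulated than in unstimulated LTβRΔN neutrophils, a comparison in which 3.73% of all 9213 tested genes passed. Among related genes outside the list, the HIF prolyl hydroxylase gene Egln3 and the glycogen regulator genes Ppp1r3b and Ppp1r3d passed with the treatment label in both genotypes.

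**Figure D1:**
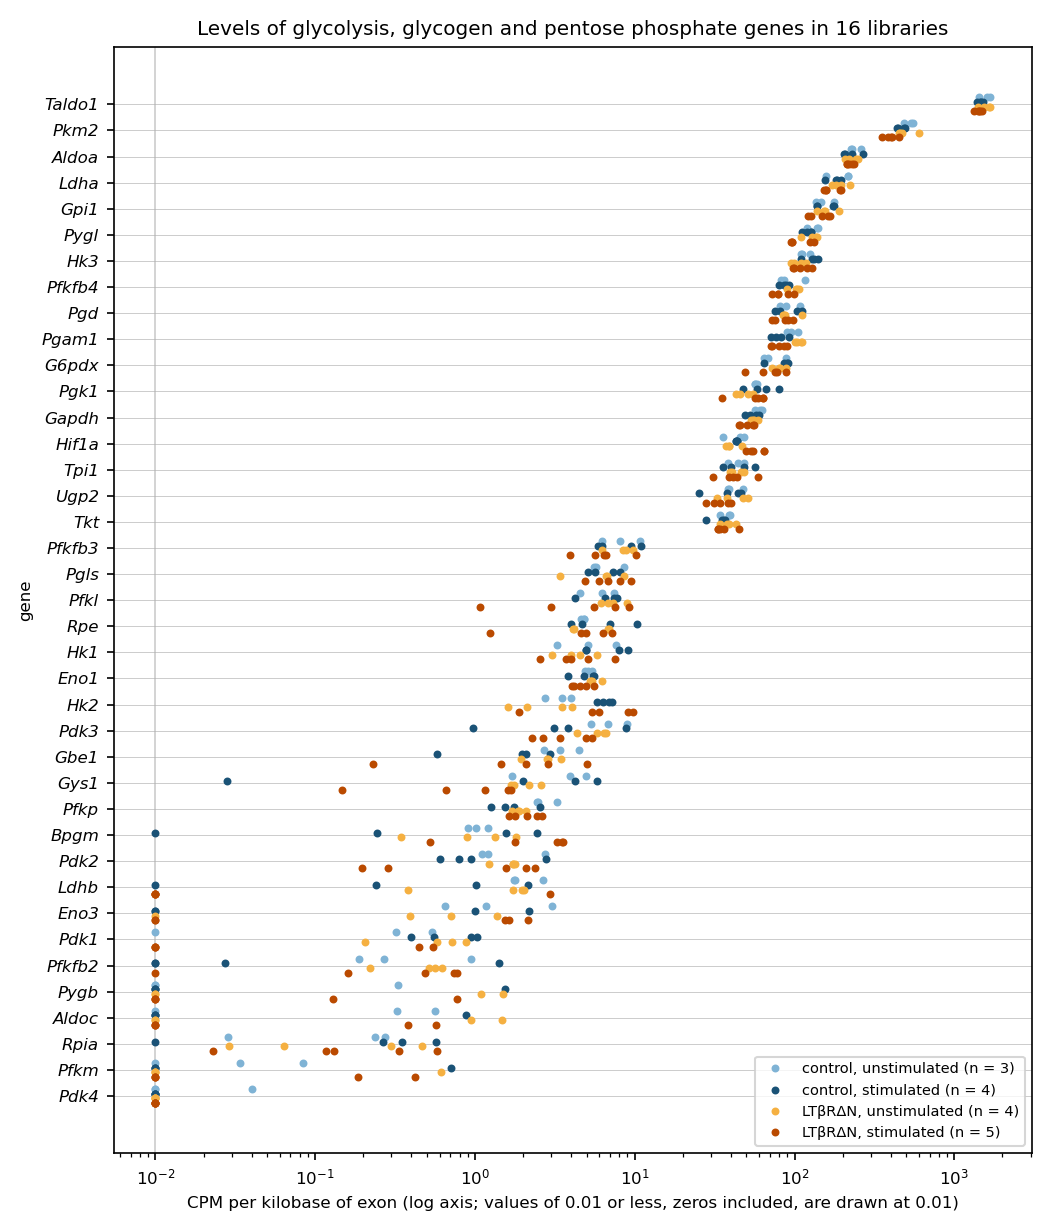
CPM per kilobase of exon (log axis) of the 38 genes and Pkm2 in each of the 16 libraries, 1 point per library, coloured by group and ordered by mean level, with zeros drawn at the left edge. Taldo1 stood at the top in every library, and the 5 stimulated LTβRΔN points of Hif1a lay to the right of its other 11.

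Levels of different genes were compared as CPM per kilobase of exon, since long transcripts give more reads. The length was that of all annotated exons of a gene merged, which can exceed that of any single transcript. It was 6895 bases for Pygl, 6447 for Pgd and 3682 for Hk3. Their longest coding transcripts had 2992, 2218 and 3219 bases. The order and the isoenzyme shares by transcript length were not tested. Taldo1, transaldolase of the non-oxidative pentose phosphate branch, was highest at a mean of 1492 CPM per kilobase, above Pkm2 at 462 and Aldoa at 228 in 16 of 16 libraries. Ldha followed at 183, Gpi1 at 153, Pygl at 121 and Hk3 at 114 CPM per kilobase. Below Aldoa most neighbours in this order changed places between libraries. Pygl was above Hk3 in 10 of 16 libraries, Pfkfb4 above Pgd in 9 and Pgd above Pgam1 in 8. With these lengths, such neighbours did not differ beyond the spread. Between Tkt at 36.4 and Pfkfb3 at 7.72 CPM per kilobase lay a gap that held in 16 of 16 libraries. By mean CPM without the scaling for length, 16 genes were at 100 or more, 11 between 10 and 100 and 11 under 10. The within-group coefficient of variation was 6.30% to 18.8% for the genes at 100 CPM or more, and its median was 101% for those under 10 CPM, where a library could hold 0 counts.

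Some of these genes share sequence with pseudogenes and related genes. In GENCODE M21, 82.5% of the 50-base windows of the Gapdh transcript occurred also in transcripts of other genes, as did 72.2% for Eno1, 68.0% for Pgk1, 41.5% for Pgam1 and 34.4% for Pkm. For Hif1a the share was 7.25%, for Taldo1 10.9% and for Hk2, Hk3, Pfkfb4, Pgd and Tkt 0. How the counting treated reads that fit several genes is not given in the sources used here. The levels of Gapdh, Eno1, Pgk1, Pgam1 and Pkm2 are therefore uncertain, the modest CPM of Gapdh beside Taldo1 and Aldoa included. Smaller shares, which leave some doubt too, were found for Ldhb (27.0%), Gpi1 (25.3%), Pfkfb2 (25.1%), Rpe (19.1%), Pfkp (17.1%), Ldha (16.65%) and Aldoa (13.5%).

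Values of single libraries are given below in CPM and in the order of the library numbers. Hexokinases, which trap glucose in the cell by adding a phosphate, were dominated by Hk3. Hk3 held 91.9% of the length-scaled hexokinase level over 16 libraries, Hk1 held 4.09% and Hk2 held 3.99%. Hk3 was at 409, 457 and 402 CPM in unstimulated and at 402, 474, 489.9 and 517 CPM in stimulated control libraries. LTβRΔN values of Hk3 were 352, 437, 365 and 402 CPM unstimulated and 364, 441, 471, 399.6 and 362 CPM stimulated. All 4 groups overlapped, with log2 fold changes of 0.16 (SE 0.131) between stimulated and unstimulated control and 0.07 (SE 0.116) between stimulated and unstimulated LTβRΔN neutrophils.

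Hk2, an isoenzyme known for induction in activated cells, had a higher mean in stimulated libraries of both genotypes without passing the test. Hk2 was at 16.4, 23.8 and 20.9 CPM in unstimulated and at 34.5, 42.9, 41.2 and 37.8 CPM in stimulated control libraries. LTβRΔN values of Hk2 were 24.3, 20.8, 12.7 and 9.54 CPM unstimulated and 35.5, 58.5, 11.3, 32.3 and 54.2 CPM stimulated. Every stimulated control library was above every unstimulated one, while library 77 of the stimulated LTβRΔN group fell among the unstimulated libraries. The log2 fold change was 0.94 (SE 0.398, 95% interval 0.12 to 1.77) in control neutrophils, with an edgeR adjusted p of 0.328. In LTβRΔN neutrophils it was 1.24 (SE 0.365, 95% interval 0.48 to 1.99) with an edgeR adjusted p of 0.0639, which missed the threshold. This call turned on the filter, the tool and single libraries. Adjusted p was 0.0275 when every library had to hold 10 counts, 0.0195 in DESeq2, 0.00551 without library 77 and 0.0113 with libraries 68, 75 and 77 left out. With the index as a term the adjusted p was 0.9999 and the log2 fold change was 1.18. Within the hexokinases, the share of Hk2 was 2.76 ± 0.431% (SD, n = 3) in unstimulated and 4.66 ± 0.427% (n = 4) in stimulated control libraries, with an exact two-sided permutation p of 0.0286, the smallest that 4 libraries against 3 allow. In LTβRΔN libraries the share was 2.52 ± 1.09% (n = 4) and 5.37 ± 2.62% (n = 5), with an exact permutation p of 0.0794. Over the 24 isoenzyme comparisons made, 3 had a raw exact permutation p under 0.05, 0 an adjusted one, and the smallest adjusted p was 0.343. Between genotypes Hk2 did not part, with a fold of 0.998 (95% interval 0.607 to 1.64) in stimulated neutrophils. Hk1 had log2 fold changes of 0.34 (SE 0.339) and 0.12 (SE 0.310) in control and LTβRΔN neutrophils and overlapped between all groups.

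In the upper part of glycolysis, where the sugar phosphate is rearranged, phosphorylated again and split, 7 genes were listed and none of the 6 tested passed the threshold by edgeR. Gpi1, glucose phosphate isomerase, lay between 779 and 1228 CPM over all libraries, and Tpi1, triose phosphate isomerase, between 85.2 and 163 CPM. Aldoa, the aldolase of muscle and blood cells, exceeded Aldoc in every library. Aldoa was at 853, 837 and 966 CPM in unstimulated and at 760.5, 767, 843 and 996 CPM in stimulated control libraries. LTβRΔN values of Aldoa were 903, 929, 813 and 762 CPM unstimulated and 872, 785, 785, 812 and 854 CPM stimulated. The groups overlapped throughout, and the widest 95% interval of its 4 fold changes ran from 0.802 to 1.13. Aldoc was at 1.06, 0 and 1.82 CPM in unstimulated and at 0, 0, 0 and 2.87 CPM in stimulated control libraries. LTβRΔN values of Aldoc were 3.09, 4.802, 0 and 0 CPM unstimulated and 1.87, 1.24, 0, 0 and 0 CPM stimulated. Of the 16 libraries 9 held 0 counts of Aldoc, and 1 library decided the stimulated control mean.

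Phosphofructokinase, the committed step of glycolysis, was read mainly from Pfkl, the liver form. Pfkl held 71.4% of the length-scaled level of the family and Pfkp, the platelet form, 27.2%. These shares depend on the length used, as merged exons were 6675 bases for Pfkl and 13401 for Pfkp. Their longest coding transcripts had 3730 and 4145 bases. Pfkl was at 49.4, 41.4 and 30.2 CPM in unstimulated and at 28.4, 49.8, 43.6 and 51.3 CPM in stimulated control libraries. LTβRΔN values of Pfkl were 45.3, 40.8, 59.8 and 48.9 CPM unstimulated and 61.05, 19.9, 37.3, 7.18 and 50.4 CPM stimulated. Libraries 76 and 78 were far below the other stimulated LTβRΔN libraries, and all groups overlapped. Pfkp was at 43.6, 32.5 and 33.3 CPM in unstimulated and at 16.8, 23.5, 33.99 and 20.6 CPM in stimulated control libraries. LTβRΔN values of Pfkp were 25.2, 24.8, 28.1 and 22.7 CPM unstimulated and 21.8, 35.3, 23.95, 28.3 and 32.9 CPM stimulated. Pfkp was 31.2 ± 3.54% of the family in unstimulated control and 20.4 ± 2.55% in unstimulated LTβRΔN libraries, and its CPM in these groups did not overlap. Non-overlap was seen there in 5.71% of all genes, and Pfkp did not reach an unadjusted p under 0.05 by edgeR between these groups. The log2 fold change of Pfkp was -0.62 (SE 0.285, edgeR unadjusted p = 0.0407, adjusted p = 0.3996) between stimulated and unstimulated control neutrophils. For the same labels in LTβRΔN neutrophils it was 0.19 (SE 0.261, edgeR adjusted p = 0.879), and the difference between both changes was 0.81 (SE 0.387, edgeR unadjusted p = 0.0488, adjusted p = 0.9999). Platelet markers were highest in stimulated control libraries 80 and 82, at 55.4 and 206 CPM, and Pfkp there was 16.8 and 34.0 CPM. Their part in the level of Pfkp was not tested. Pfkm, the muscle form, held 0 to 24 counts a library and was not tested.

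The PFKFB enzymes set the level of a sugar bisphosphate that speeds up phosphofructokinase. Pfkfb4 held 91.7% of their length-scaled level, Pfkfb3 7.84%, and Pfkfb2 was at 0 in 3 of 16 libraries. Pfkfb4 was at 566, 399 and 417 CPM in unstimulated and at 431, 387, 448 and 421 CPM in stimulated control libraries. LTβRΔN values of Pfkfb4 were 437, 516, 495 and 504 CPM unstimulated and 384, 444, 354, 386 and 482 CPM stimulated. Stimulated and unstimulated libraries overlapped in both genotypes, with a log2 fold change of -0.13 (SE 0.137) in control and -0.25 (SE 0.122, edgeR adjusted p = 0.395) in LTβRΔN neutrophils. Scaled by library totals alone, Pfkfb4 passed in LTβRΔN neutrophils with a log2 fold change of -0.44. Pfkfb3, the form known for induction by inflammatory signals, ranged from 29.6 to 82.8 CPM and had log2 fold changes of -0.04 (SE 0.283) and -0.33 (SE 0.256) with the treatment label.

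In the lower part of glycolysis, which returns ATP, none of the 6 genes under their own symbol passed in any edgeR comparison. Gapdh, often used to normalise other genes, was steady within groups. Gapdh was at 250.4, 257 and 234 CPM in unstimulated and at 217, 203, 237 and 248 CPM in stimulated control libraries. LTβRΔN values of Gapdh were 244, 231, 220.5 and 226 CPM unstimulated and 207, 189, 186, 226 and 230.5 CPM stimulated. The log2 fold change of Gapdh was -0.13 (SE 0.128) and -0.15 (SE 0.115) with the treatment label in control and LTβRΔN neutrophils, and stimulated and unstimulated libraries overlapped in each genotype. Pgk1, phosphoglycerate kinase, ranged from 79.0 to 180 CPM. Its unstimulated control libraries, at 127 to 131 CPM, all lay above the unstimulated LTβRΔN libraries, at 96.0 to 124 CPM, with a log2 fold change of -0.23 (SE 0.196, edgeR unadjusted p = 0.243).

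Pgam1, the phosphoglycerate mutase of most tissues, was lower in stimulated neutrophils without passing the test. Pgam1 was at 189, 207 and 178 CPM in unstimulated and at 141, 152, 183 and 162 CPM in stimulated control libraries. LTβRΔN values of Pgam1 were 217, 204, 200.1 and 219 CPM unstimulated and 178, 159, 142, 171 and 141 CPM stimulated. In LTβRΔN neutrophils every stimulated library lay below every unstimulated one, while in control neutrophils library 82 lay above library 73. The log2 fold change was -0.26 (SE 0.139, edgeR adjusted p = 0.518) in control and -0.41 (SE 0.124, edgeR adjusted p = 0.0734) in LTβRΔN neutrophils. DESeq2 gave an adjusted p of 0.0143 for the latter. Pgam1 passed in both genotypes when libraries were scaled by their totals alone, at log2 fold changes of -0.51 and -0.59.

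Bpgm, which makes a bisphosphoglycerate known mainly from red cells, and Eno3 were scarce. The enolase gene Eno1 was read at 20.4 to 33.6 CPM, a level that its shared sequence makes uncertain. Bpgm was at 3.65, 4.31 and 3.23 CPM in unstimulated and at 0, 8.78, 5.65 and 0.874 CPM in stimulated control libraries. LTβRΔN values of Bpgm were 1.24, 3.201, 4.75 and 6.47 CPM unstimulated and 1.87, 11.6, 6.34, 12.6 and 12.8 CPM stimulated. Library 75 was low and the other stimulated LTβRΔN libraries were at 6.34 CPM or more, and the log2 fold change against unstimulated LTβRΔN was 1.20 (SE 0.906, edgeR adjusted p = 0.683). Erythroid markers summed to 23.3 to 67.0 CPM in stimulated and to 12.01 to 55.2 CPM in unstimulated LTβRΔN libraries. The beta-globin row Beta-s alone was at 12.01 to 66.2 CPM over all 16 libraries. The part of erythroid markers in Bpgm was not tested. Eno1 was at 28.9, 26.1 and 27.2 CPM in unstimulated and at 25.9, 20.4, 29.6 and 30.1 CPM in stimulated control libraries. LTβRΔN values of Eno1 were 28.6, 33.6, 28.97 and 28.3 CPM unstimulated and 21.8, 22.3, 26.8, 24.2 and 29.8 CPM stimulated. Eno1 overlapped in all groups, and library 68, the shallowest of all, held the highest value. Eno3 was at 5.25, 2.04 and 1.12 CPM in unstimulated and at 0, 3.796, 0 and 1.75 CPM in stimulated control libraries. LTβRΔN values of Eno3 were 1.24, 2.401, 0.679 and 0 CPM unstimulated and 3.74, 2.85, 0, 2.69 and 0 CPM stimulated. Eno3, the muscle enolase, was at 0 in 5 of 16 libraries and gave 95% intervals as wide as -5.03 to 2.01 on the log2 scale. Pkm2 lay between 1751 and 3005 CPM and had log2 fold changes of -0.16 (SE 0.117, edgeR adjusted p = 0.730) in control and -0.31 (SE 0.103, edgeR adjusted p = 0.122) in LTβRΔN neutrophils.

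Lactate dehydrogenase, which regenerates NAD from lactate formation, was nearly all Ldha, at 99.4% of the length-scaled level of Ldha and Ldhb. Ldha was at 713, 712 and 519 CPM in unstimulated and at 513, 609, 598 and 646 CPM in stimulated control libraries. LTβRΔN values of Ldha were 568, 735, 646 and 599 CPM unstimulated and 509, 524, 524, 633 and 645 CPM stimulated. All groups overlapped, and no comparison had a log2 fold change beyond -0.17. Ldhb was at 2.74, 4.19 and 2.81 CPM in unstimulated and at 3.38, 0, 1.59 and 0.375 CPM in stimulated control libraries. LTβRΔN values of Ldhb were 3.09, 3.201, 2.72 and 0.596 CPM unstimulated and 0, 0, 0, 0 and 4.65 CPM stimulated. Stimulated LTβRΔN libraries were at 0 except library 79, and the log2 fold change of Ldhb against unstimulated LTβRΔN was -1.29 (SE 1.43). The pyruvate dehydrogenase kinases, which hold back the entry of pyruvate into mitochondria, were low, with Pdk3 at 71.0%, Pdk2 at 21.7% and Pdk1 at 7.34% of their length-scaled level and 1 count of Pdk4 in all 16 libraries. Pdk3 was at 13.7, 22.9 and 17.4 CPM in unstimulated and at 7.97, 9.73, 22.6 and 2.497 CPM in stimulated control libraries. LTβRΔN values of Pdk3 were 14.8, 11.2, 16.5 and 16.9 CPM unstimulated and 8.72, 6.81, 12.7, 13.9 and 5.81 CPM stimulated. Stimulated and unstimulated libraries of control neutrophils overlapped, as library 82 reached 22.6 CPM, whereas those of LTβRΔN overlapped through libraries 68, 77 and 78. Pdk1 was at 0, 2.49 and 4.21 CPM in unstimulated and at 4.32, 3.08, 8.03 and 7.37 CPM in stimulated control libraries. LTβRΔN values of Pdk1 were 4.49, 5.603, 1.58 and 6.81 CPM unstimulated and 0, 0, 4.23, 0 and 3.49 CPM stimulated. Pdk1, a known HIF-1 target, was at 0 in 3 of 5 stimulated LTβRΔN libraries. Its share among the kinases was 15.3 ± 13.1% (SD, n = 4) in stimulated control and 3.41 ± 4.70% (n = 5) in stimulated LTβRΔN libraries, with an exact permutation p of 0.0476 and an adjusted p of 0.343. Without library 83, at 34.9%, the stimulated control mean was 8.82% and the exact permutation p was 0.0893. Leaving out each library of both groups in turn gave an exact permutation p from 0.0286 to 0.114, over 0.05 without library 75, 76, 77, 78, 82 or 83.

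**Figure D2:**
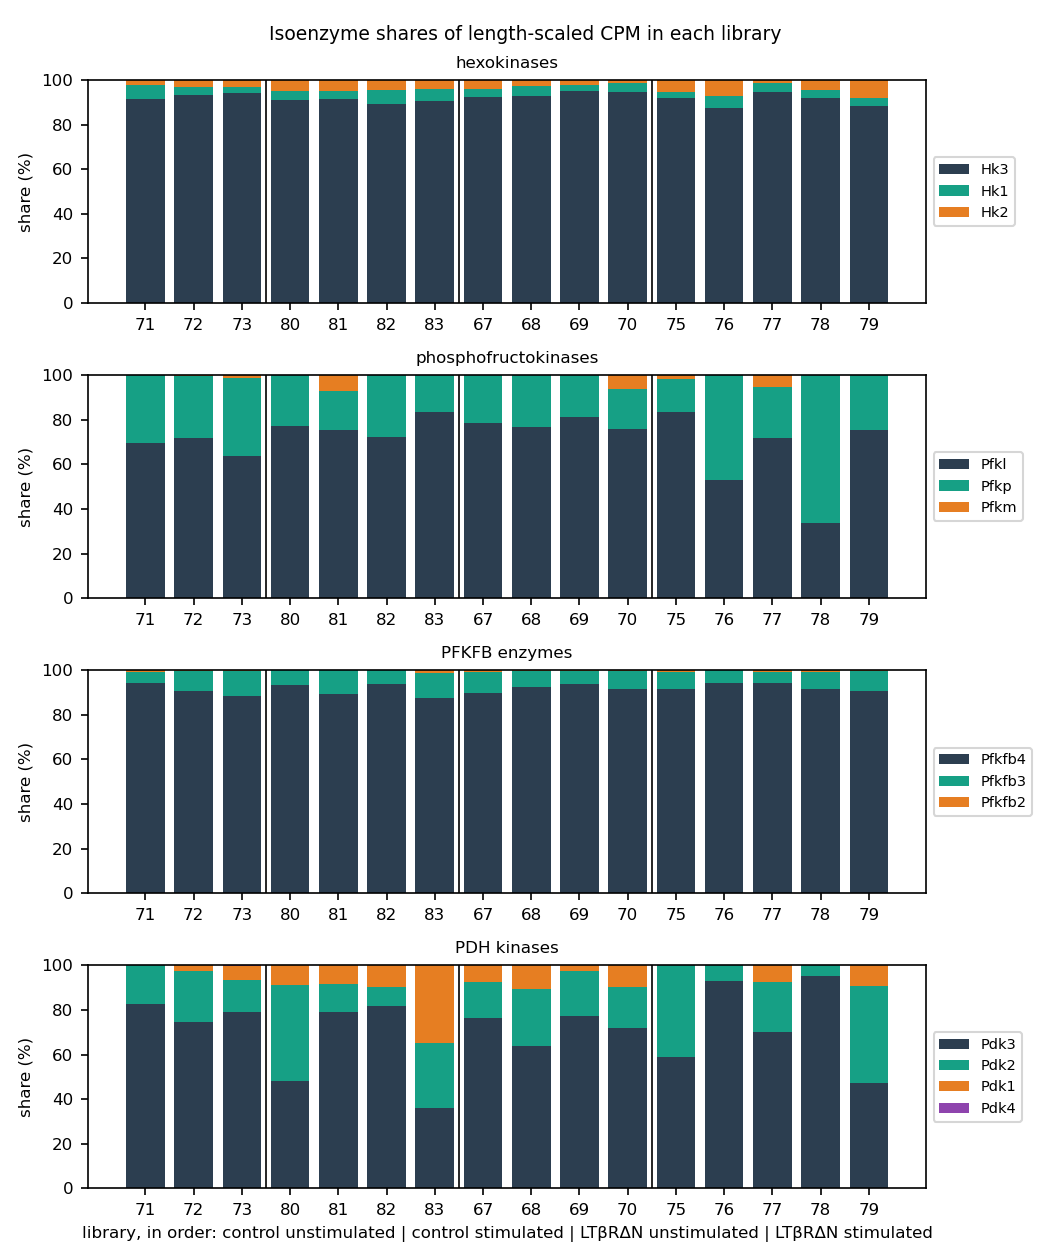
Share of each isoenzyme (%) in the summed CPM per kilobase of its family, as stacked bars for the 16 libraries, with black lines between the 4 groups. Hk3, Pfkl, Pfkfb4 and Pdk3 were the main forms over all libraries, with libraries 78 (Pfkl), 80, 83 and 79 (Pdk3) as exceptions in which the main form fell under 50%.

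Among the glycogen genes, Pygl, the liver form of glycogen phosphorylase that releases glucose units from glycogen, held 99.7% of the length-scaled phosphorylase level. Pygl was at 968, 949 and 829.2 CPM in unstimulated and at 879, 879, 824 and 771 CPM in stimulated control libraries. LTβRΔN values of Pygl were 754, 958, 942 and 881 CPM unstimulated and 859, 911, 664, 651 and 663 CPM stimulated. Libraries 77, 78 and 79 lay below all unstimulated LTβRΔN libraries while 75 and 76 lay among them, and the log2 fold change was -0.24 (SE 0.118, edgeR adjusted p = 0.415). Pygb was at 0, 1.59 and 0 CPM in unstimulated and at 7.43, 0, 0 and 0 CPM in stimulated control libraries. LTβRΔN values of Pygb were 0, 7.203, 0 and 5.28 CPM unstimulated and 0.623, 3.71, 0, 0 and 0 CPM stimulated. Pygb, the brain form, was at 0 in 10 of 16 libraries. Gys1 was at 8.21, 23.7 and 18.8 CPM in unstimulated and at 0.135, 20.2, 9.51 and 27.7 CPM in stimulated control libraries. LTβRΔN values of Gys1 were 10.4, 8.004, 8.37 and 12.3 CPM unstimulated and 8.098, 5.57, 0.705, 3.14 and 7.75 CPM stimulated. Gys1, glycogen synthase, varied within groups from 0.135 to 27.7 CPM among stimulated control libraries alone. The log2 fold change of Gys1 between stimulated LTβRΔN and stimulated control neutrophils was -1.48 (SE 0.735, edgeR adjusted p = 0.773). Ugp2, which makes the sugar nucleotide for glycogen, ranged from 77.0 to 156 CPM, and Gbe1, the branching enzyme, from 1.24 to 26.8 CPM. Neither passed in any comparison by edgeR.

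In the oxidative branch of the pentose phosphate pathway, which makes NADPH, G6pdx is the gate enzyme glucose phosphate dehydrogenase. G6pdx was at 270.4, 199.5 and 210.1 CPM in unstimulated and at 263, 277, 279 and 198 CPM in stimulated control libraries. LTβRΔN values of G6pdx were 222, 274, 249 and 245 CPM unstimulated and 272, 234, 151, 241 and 194 CPM stimulated. The groups overlapped, with log2 fold changes of 0.16 (SE 0.176) in control and -0.18 (SE 0.156) in LTβRΔN neutrophils with the treatment label. Pgd, the second dehydrogenase of the branch, ranged from 467 to 718 CPM, and Pgls, the lactonase between both, from 12.8 to 35.6 CPM. In the non-oxidative branch, which exchanges carbons between sugars, Taldo1 had the highest level of all members. Taldo1 was at 3474, 3639.9 and 3113 CPM in unstimulated and at 3005, 3202, 3133 and 3263 CPM in stimulated control libraries. LTβRΔN values of Taldo1 were 3335, 3069, 3595 and 3611 CPM unstimulated and 3214, 2875, 3104, 3135 and 3049.6 CPM stimulated. Libraries overlapped between the labels in both genotypes, at folds of 0.924 (95% interval 0.803 to 1.06) and 0.904 (95% interval 0.799 to 1.02). Taldo1 passed in both genotypes under scaling by library totals alone, at log2 fold changes of -0.36 and -0.33. Tkt, transketolase, ranged from 206 to 332 CPM, Rpe, the epimerase, from 3.87 to 32.1 CPM, and Rpia, the isomerase, from 0 to 3.10 CPM. No gene of either branch passed in any comparison by edgeR.

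Hif1a was the single member called. It lies on chromosome 12 of GRCm38 from 73901375 to 73947530 on the plus strand. Hif1a was at 270.4, 209 and 283 CPM in unstimulated and at 257, 257, 254 and 254 CPM in stimulated control libraries. LTβRΔN values of Hif1a were 221, 229, 229 and 278 CPM unstimulated and 292, 381, 316, 381 and 322 CPM stimulated. All 5 stimulated LTβRΔN libraries, at 292 CPM or more, were above the other 11 libraries. The log2 fold change with the treatment label in LTβRΔN neutrophils was 0.50 (SE 0.124, 95% interval 0.24 to 0.76), a fold of 1.42, with an edgeR adjusted p of 0.0190. In control neutrophils the log2 fold change for the same labels was 0.01 (SE 0.138, 95% interval -0.28 to 0.30), and libraries 71 and 73 were above all 4 stimulated libraries. The difference between both changes was 0.49 (SE 0.185, edgeR unadjusted p = 0.0144), and its adjusted p of 0.9999 did not pass. Between genotypes, stimulated neutrophils had a log2 fold change of 0.41 (SE 0.123, 95% interval 0.15 to 0.66, edgeR unadjusted p = 0.00323, adjusted p = 0.636) with no overlap, and unstimulated ones of -0.09 (SE 0.139). The comparisons share libraries and are given side by side.

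The call on Hif1a was held by 12 of 19 alternatives. It was lost without library 67, 68, 69, 76 or 78, with edgeR adjusted p of 0.0826, 0.0528, 0.0772, 0.0506 and 0.0585, under scaling by library totals alone (log2 fold change 0.32, adjusted p = 0.137) and with the index as a term (log2 fold change 0.27, adjusted p = 0.9999). The direction was upward in all 19. Since all stimulated LTβRΔN libraries carried S521 and all unstimulated ones S520, the index and the label cannot be told apart within this genotype.

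The start region of Hif1a is shown with those of Hk2, a known HIF-1 target among the members, and of Egln3, described further on, because HIF-1 is known to bind short motifs such as ACGTG and GCGTG. The 300 bases run from 250 before to 50 after the transcript start, 5′ to 3′ on the strand of the gene, as given by RefSeq on GRCm38.p6. Capitals mark ACGTG and GCGTG on either strand, where CACGTG holds ACGTG on both strands and counts as 2 matches. Coordinates are chr12:73907617-73907916 on the plus strand for Hif1a, chr6:82774405-82774704 on the minus strand for Hk2 and chr12:54203825-54204124 on the minus strand for Egln3.
Hif1a: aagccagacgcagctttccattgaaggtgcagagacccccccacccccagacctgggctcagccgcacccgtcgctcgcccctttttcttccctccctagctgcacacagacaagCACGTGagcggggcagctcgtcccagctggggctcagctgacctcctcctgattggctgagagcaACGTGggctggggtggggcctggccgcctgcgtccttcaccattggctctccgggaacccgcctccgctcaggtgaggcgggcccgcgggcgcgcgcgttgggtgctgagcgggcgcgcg
Hk2: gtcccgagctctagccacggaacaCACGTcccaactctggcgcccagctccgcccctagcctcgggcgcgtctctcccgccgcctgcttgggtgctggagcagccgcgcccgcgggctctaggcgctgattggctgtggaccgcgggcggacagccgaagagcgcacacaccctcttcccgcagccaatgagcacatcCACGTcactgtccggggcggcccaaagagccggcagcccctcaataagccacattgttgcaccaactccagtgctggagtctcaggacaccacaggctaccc
Egln3: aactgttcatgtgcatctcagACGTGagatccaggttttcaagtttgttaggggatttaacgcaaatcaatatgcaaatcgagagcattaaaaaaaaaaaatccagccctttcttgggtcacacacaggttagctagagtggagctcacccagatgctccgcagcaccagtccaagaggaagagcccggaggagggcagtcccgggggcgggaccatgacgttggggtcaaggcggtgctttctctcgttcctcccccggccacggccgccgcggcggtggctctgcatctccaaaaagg
The Hif1a window held 3 matches, the Hk2 window 2 and the Egln3 window 1. Over 55 promoters of the 38 genes, 76.4% held either motif, against 43.8% of all 32851 promoters of this length. For ACGTG the shares were 41.8% and 19.6%, and for GCGTG they were 58.2% and 32.4%. Mean GC content was 59.65% in the member promoters and 53.8% in all, and the shares were not adjusted for it. A match is a run of letters and not a measured binding site.

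The counts of called members stand here beside those over all genes. Between stimulated and unstimulated control neutrophils 0 of 36 members were called by edgeR, where 3.48% of all 9213 genes were, and 2 members had an unadjusted p under 0.05 (Hk2 and Pfkp). DESeq2 also called 0 members, and 455 of the 9213 genes. Groups did not overlap in 1 of 36 members, against 12.7% of all genes. The median log2 fold change was -0.06 over members and -0.02 over all genes, and with the index as a term 0.06 and 0.03.

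Between stimulated and unstimulated LTβRΔN neutrophils 1 of 36 was called by edgeR, against 3.73% of all genes, and 3 had an unadjusted p under 0.05 (Hif1a, Hk2 and Pgam1). DESeq2 called these 3, and 499 of the 9213 genes. Groups did not overlap in 2 of 36, Hif1a and Pgam1, against 7.28% of all genes. Members had a median of -0.17 and all genes one of -0.03, and 26 of the 36 members lay below 0. With the index as a term 18 of 36 did. That term rests on control library 73, since index and label coincide in LTβRΔN libraries.

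Between genotypes no member was called. In stimulated neutrophils edgeR and DESeq2 called 0 of 36, against 0.0217% of all genes by edgeR and 15 of 9213 by DESeq2. There was 1 unadjusted p under 0.05 by edgeR (Hif1a), and non-overlap in 1 of 36 against 1.31% of all genes. The median was -0.12 over members and -0.01 over all genes, with 28 of 36 below 0 and with 26 of 36 below 0 under DESeq2's size factors. In unstimulated neutrophils both tools called 0 of 36, against 0.0217% of all genes by edgeR and 4 of 9213 by DESeq2. There were 0 unadjusted p under 0.05 by edgeR, and non-overlap in 2 of 36 (Pgk1 and Pfkp) against 5.71%. For the difference of the treatment effect between genotypes 0 of 36 members and 0 of all genes were called by edgeR, with 2 members at an unadjusted p under 0.05 (Hif1a and Pfkp).

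**Figure D3:**
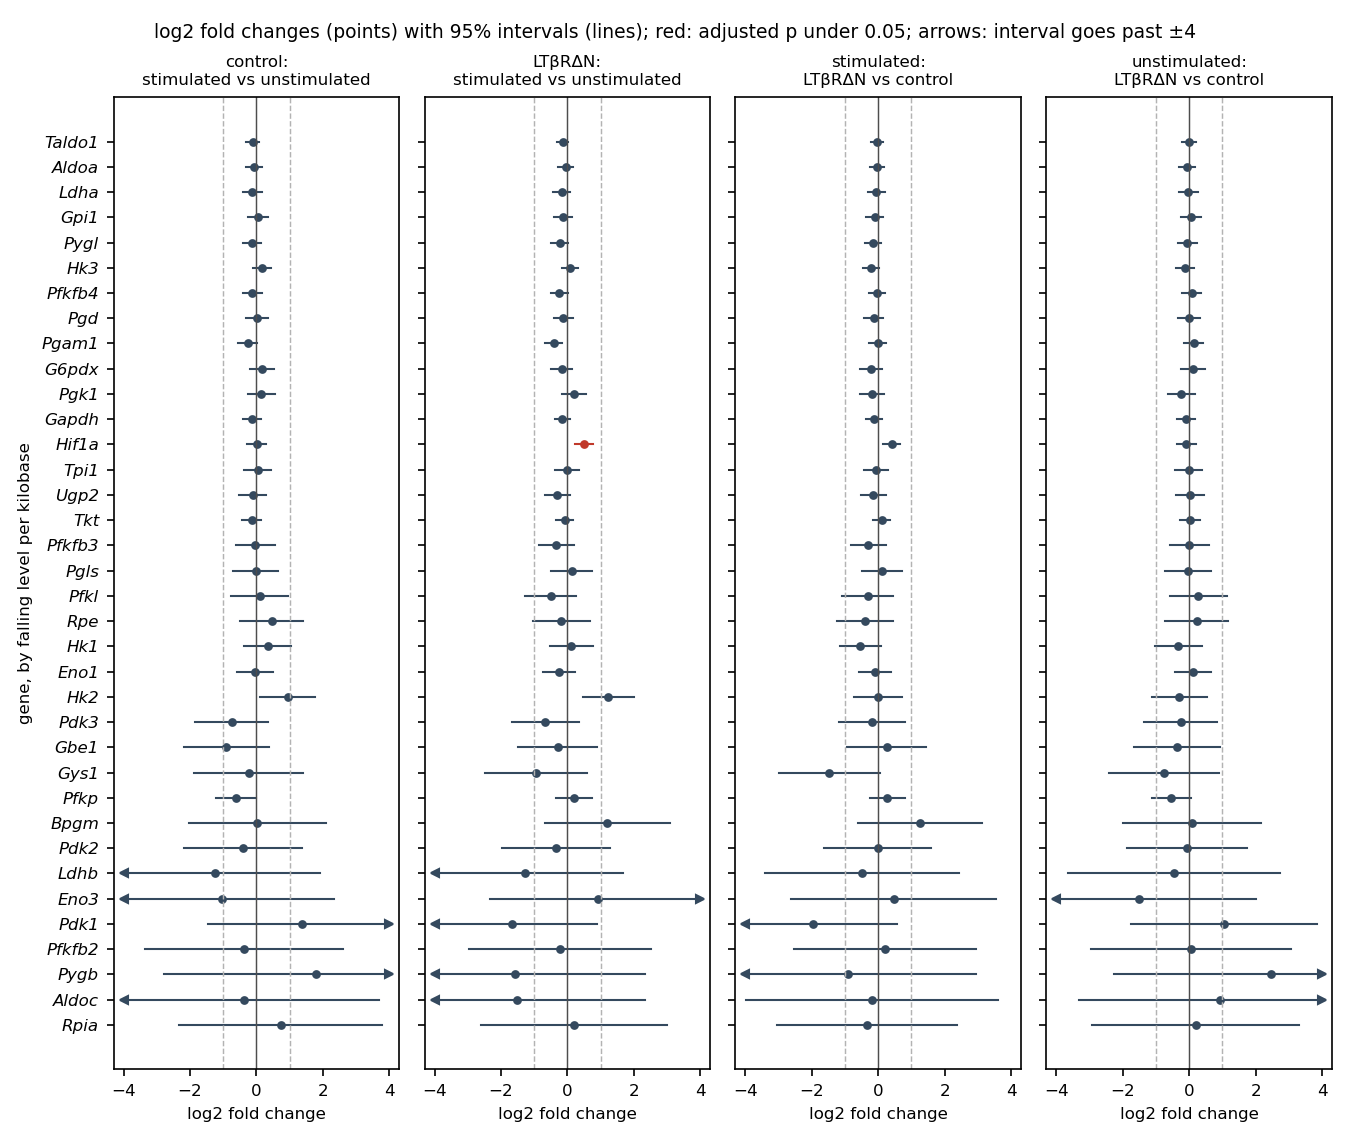
Log2 fold changes (points) with 95% intervals (lines) of the 36 tested genes in 4 comparisons, ordered by falling level, with dashed lines at a 2-fold change and red for an adjusted p under 0.05. The abundant genes in the upper rows stayed inside the dashed lines and Hif1a in stimulated against unstimulated LTβRΔN neutrophils was the only red point, while the scarce genes at the bottom had intervals wider than the axis.

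What the depth could show differed with level. For the 16 genes at 100 CPM or more, a limit chosen after the values were seen, the 95% interval of every fold lay inside a 2-fold change in each of the 5 comparisons. The outermost bounds were folds of 0.683 and 1.46 for the treatment label in control and 0.623 and 1.69 in LTβRΔN neutrophils. For genotype they were 0.688 and 1.58 in stimulated and 0.642 and 1.403 in unstimulated neutrophils. Over all 1368 genes of this level, 86.1% and 88.5% had such intervals with the treatment label, and 99.6% and 97.9% with genotype. Of the 20 tested members under 100 CPM, 4, 5, 5 and 3 had such intervals in the same order, and the intervals of the rest reached past a 2-fold change.

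Around the pathway, 5 further lists of related genes were read in the same fit, all chosen with earlier results of these data known. In bulk RNA, a change can come from RNA per cell or from the number of cells of a type, and these cannot be told apart. Of 22 tested further enzymes and regulators of glucose and glycogen, 1 rose and 1 fell in control neutrophils with the treatment label, and 1 rose and 2 fell in LTβRΔN neutrophils, where 3.48% and 3.73% of all tested genes were called. Of 6 tested genes of HIF control, 1 rose in each genotype. None of the 11 tested HIF-1 targets outside glycolysis, the 8 of the pyruvate dehydrogenase complex and pyruvate entry, and the 6 other pentose phosphate enzymes passed in any comparison by edgeR. No gene of the 5 lists passed between genotypes by edgeR, and DESeq2 called Pgm3 between stimulated groups (adjusted p = 0.0151).

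Egln3 encodes a prolyl hydroxylase that marks HIF-1α for breakdown and is itself a HIF-1 target, and it lies on chromosome 12 from 54178981 to 54203860. Egln3 was at 6.62, 13.7 and 3.93 CPM in unstimulated and at 243, 298, 240.2 and 209 CPM in stimulated control libraries. LTβRΔN values of Egln3 were 6.34, 6.403, 6.34 and 13.8 CPM unstimulated and 193, 269, 216, 212 and 229.7 CPM stimulated. Every stimulated library was above every unstimulated one. Egln3 rose by a log2 fold change of 4.93 (SE 0.341, edgeR adjusted p = 4.31e-10) in control and by 4.66 (SE 0.304, edgeR adjusted p = 1.42e-10) in LTβRΔN neutrophils. Between genotypes its log2 fold change was -0.14 in stimulated neutrophils (edgeR adjusted p = 0.980), and it passed with the treatment label under all 16 alternatives in control and all 18 in LTβRΔN neutrophils.

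Ppp1r3d and Ppp1r3b encode subunits that bring a protein phosphatase to glycogen. Ppp1r3d was at 171, 191 and 184 CPM in unstimulated and at 306, 427, 391 and 367 CPM in stimulated control libraries. LTβRΔN values of Ppp1r3d were 201, 141, 156 and 227 CPM unstimulated and 330.2, 384, 330.4, 351 and 363 CPM stimulated. Stimulated libraries were all above unstimulated ones, and Ppp1r3d rose by 1.03 (SE 0.157, edgeR adjusted p = 8.91e-05) on the log2 scale in control and by 0.95 (SE 0.139, edgeR adjusted p = 5.39e-05) in LTβRΔN neutrophils. Ppp1r3b was at 323, 359 and 376 CPM in unstimulated and at 148, 123, 176 and 205 CPM in stimulated control libraries. LTβRΔN values of Ppp1r3b were 319, 351, 412 and 335 CPM unstimulated and 239, 169, 213, 276 and 244 CPM stimulated. Here stimulated libraries were all below unstimulated ones. Ppp1r3b fell by 1.11 (SE 0.170, edgeR adjusted p = 9.72e-05) on the log2 scale in control and by 0.64 (SE 0.151, edgeR adjusted p = 0.0131) in LTβRΔN neutrophils. In LTβRΔN neutrophils the call on Ppp1r3b was lost without library 69 (edgeR adjusted p = 0.0837), without libraries 68, 75 and 77 together (0.121) and with the index as a term (0.710), and that on Ppp1r3d with the index as a term (0.290). With the index as a term the log2 fold changes there were -0.78 for Ppp1r3b and 0.93 for Ppp1r3d, about as large as without it or larger.

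Pgm3, a phosphosugar mutase of hexosamine synthesis, was at 0 counts in all 5 stimulated LTβRΔN libraries. Unstimulated LTβRΔN libraries held 32 counts of it, a pooled 1.34 CPM, with 0.426 to 2.78 CPM in single libraries. With 3 counts set for the whole stimulated group, the pooled level was 7.11-fold lower. This ratio leaves out the spread between libraries and is not a limit. The edgeR adjusted p of 0.0373 passed under 5 of 17 alternatives and ranged from 0.0161 to 0.369, so this call rests on few reads.

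**Figure D4:**
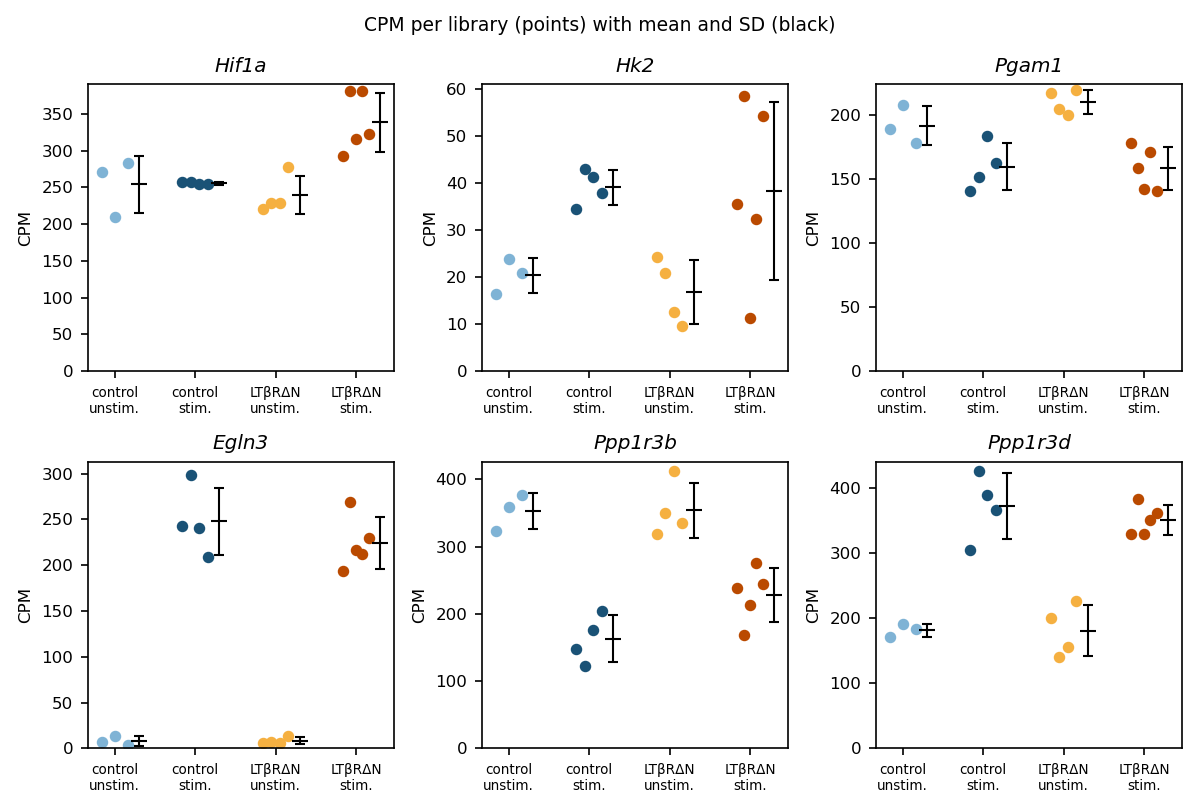
CPM of Hif1a, Hk2, Pgam1, Egln3, Ppp1r3b and Ppp1r3d in each library (points) with the mean and SD of each group (black). Hif1a was highest in stimulated LTβRΔN libraries alone, at 338 ± 40.5 CPM, whereas Egln3 and Ppp1r3d were higher and Ppp1r3b lower in stimulated libraries of both genotypes.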

How the data were processed

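Neutrophil RNA was sequenced single-end on a HiSeq2500, and the authors left out samples that failed quality control. What the authors deposited is a single table of raw counts, in whole numbers, for each gene symbol and library. The submitters' processing notes name TopHat 1.4.1, Bowtie 1.0.0, HTSeq 0.7.1 and the build mm10, and the annotation, the counting settings and the authors' test are not given in the sources used here. Groups came from the sample labels.

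Genes were filtered with edgeR's filterByExpr (minimum count 10, minimum total 15), which left 9213 of 23337 symbols. Counts of all 16 libraries were fitted in edgeR 4.0.16 (R 4.3.3) by the quasi-likelihood test after TMM scaling, with the 4 groups as terms, and Benjamini-Hochberg adjusted p-values under 0.05 over all tested genes counted as called. CPM were scaled by the same factors. Each SE of a log2 fold change was its absolute value over the square root of the F statistic of the quasi-likelihood test. The 95% intervals were built from these SE, so both are approximate. The test was first run on simulated counts. Library totals lay between 1094335 and 11932653 counts, and counting error is largest for scarce genes. For isoenzyme shares the difference in means was tested by exact permutation, two-sided. Gene places, exon lengths and shared 50-base windows came from GENCODE M21 (GRCm38). Alternatives were other scalings, filters and tools (DESeq2 1.42.0), the library index (S520 or S521) as a term, a fit of the compared groups alone, a replicate block taken from the numbers in the column headers and each library left out in turn. Leaving out all libraries under 2000000 counts together was added after seeing the data.

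Members and lists were chosen with earlier results of these data known. Values in every library are given for called members, for the 3 tested members of largest absolute log2 fold change in each of the 4 pairwise comparisons and for the leading isoenzyme of each step. Hk2, Pgam1, Pfkp, Taldo1, Gapdh and G6pdx were chosen after their values were seen, and of the related lists the called genes are named.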

Additional observations from a re-analysis of the deposited data

Results flagged for a closer look

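A library far from the others of its group was looked for in 66 groups of 4 or 5 values, and 6 were found. For normally spread values about 1 in 20 groups, or 3.3, would be flagged. A group at 0 in all but 1 library is always flagged, so this rate does not hold for scarce genes. They fell in 6 different libraries. Hif1a was at 278 CPM in library 70, against 221 to 229 CPM in the other unstimulated LTβRΔN libraries, and it still lay below all stimulated ones. Eno1 was at 33.6 CPM in library 68 of the same group, against 28.3 to 29.0 CPM in the rest. The other 4 were isoenzymes near the limit of detection. Pygb was at 7.43 CPM (55 counts) in stimulated control library 80, against 0 in the other 3, and at 3.71 CPM (30 counts) in stimulated LTβRΔN library 76, against 0 to 0.623 CPM. Aldoc was at 2.87 CPM (23 counts) in stimulated control library 83 and Ldhb at 4.65 CPM (12 counts) in stimulated LTβRΔN library 79, each against 0 in the others of the group.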

How the results depend on the processing

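The number of members called was 1 of 36 for the treatment label in LTβRΔN neutrophils and 0 in the other comparisons. Scaling by library totals alone gave 2 in control (Pgam1 and Taldo1) and 3 in LTβRΔN neutrophils (Pfkfb4, Pgam1 and Taldo1). It also moved the median log2 fold change of all genes with the treatment label to -0.27 in control and -0.21 in LTβRΔN neutrophils. The members' medians, at -0.31 and -0.36, lay below these, by more in LTβRΔN than in control neutrophils. In LTβRΔN neutrophils a filter of 10 counts in every library gave 2 (Hif1a and Hk2) of 26 tested, and DESeq2 gave 3 (Hif1a, Hk2 and Pgam1). Leaving out libraries 68, 75 and 77 together gave 2 (Hif1a and Hk2), and the index as a term gave 0. Over all genes these settings called 368, 499, 260 and 79 in the same order, against 344 in the main fit. The filter of 10 counts in every library tested fewer genes than the main fit, so 368 was a larger share of them. The cause of these changes was not tested. Leaving out each library in turn gave 0 to 2 members there, and 266 to 334 of all genes. There were 0 without library 68, 69, 76 or 78 and 2 without library 77, and Hk2 was called in place of Hif1a without library 67. With the index as a term, which rests on library 73, the members' median was 0.06 in control and 0.02 in LTβRΔN neutrophils. No result changed its direction while being called. Over all genes, 260 of 321 calls in control and 275 of 344 in LTβRΔN neutrophils were higher in stimulated libraries, against 201 of 473 and 216 of 509 under library totals.

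The column names carry numbers shared by 7 pairs of a stimulated and an unstimulated library. The deviations of such pairs correlated at 0.0214 to 0.0694, 0 of them over 0.1, and 6 of 7 libraries correlated best with their own number, a hint from the data alone. The replicate block for these numbers changed no count of called members, and genotype contrasts could not be fitted with it. Counting error is largest for the members under 10 CPM, but part of the spread of scarce members arose between libraries of like depth. Gys1, for example, held 1 count in library 80 and 222 in library 83, of 7809748 and 8701827 counts in all. How much of this spread depth sets was not tested.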
